A study of Mus musculus with 6 samples.

Results

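Axl, Mertk and Tyro3 encode the TAM family of receptor tyrosine kinases, and Gas6 and Pros1 encode their secreted ligands. These 5 genes were picked out by symbol from the 56884 genes listed for each library, because earlier summed levels in these same libraries had shown Axl high and Mertk low in microglia of the Nodal mutant cortex. The values below therefore describe that pattern and do not test it. All 6 single-cell libraries were used, the cortex pair first.

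Gas6 and protein S, the product of Pros1, carry a gamma-carboxylated domain that holds phosphatidylserine on the surface of dying cells, and they bind TAM receptors at their other end. AXL responds to Gas6 and not to protein S, whereas MERTK and TYRO3 respond to both. In the healthy brain Mertk is a receptor of resting microglia and of astrocytes that take up apoptotic cells and synaptic material. Axl is known as the TAM receptor that interferon and inflammation induce in phagocytes, and TAM signalling in turn dampens the interferon response.

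The study compared mice in which a floxed gene was removed from pericytes, the mural cells of capillaries, with littermates. The mutants, called iPCKO, carried a tamoxifen-inducible Cre in a Pdgfrb BAC transgene, which is active in pericytes and other mural cells. The study reports limited recombination in cells low in PDGFRβ, such as fibroblasts. It cites earlier lung work in which PDGFRα+ fibroblasts, bronchial smooth muscle and myofibroblasts were not labelled. The controls were lox/lox mice without that transgene. Cre was induced with 50 µg tamoxifen on 3 days, from P1 to P3, and the study's methods do not state separately whether control pups were injected. Each library pooled 2 mice. Cerebral cortex was taken at P12 from Nodal lox/lox and Nodal iPCKO mice, with the meninges and myelin debris removed. Lung was taken at P21 from Bdnf lox/lox, Bdnf iPCKO, Hgf lox/lox and Hgf iPCKO mice, with CD45+ and Ter119+ cells depleted, so the lung data hold few macrophages.

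There was 1 library per group, so the animal-to-animal spread is unknown and no p-value is given. A level is UMIs (molecules counted once each) summed over the cells of a type, per 1000000 UMIs of those cells (CPM). Intervals are exact 95% Poisson or binomial intervals, and for a log2 ratio of mutant over control the exact conditional interval; all of them cover counting error only. CPM from a 3′ tag is not divided by gene length, so levels are compared between cells, and Axl is set against Mertk only to compare that ratio between libraries. The word "higher" or "lower" thus refers to these libraries and not to the genotypes at large.

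Barcodes with at least 1500 UMIs (700 in the shallower Hgf libraries) numbered 3237 to 24311 per library, with median depths of 2841 to 7792 UMIs, and 9.76 to 22.8% of them matched no cell type or more than 1. Cells are called by a marker gate, as microglia-like, astrocyte-like and so on. The paired libraries shared 21, 457 and 254 barcodes in the Nodal, Bdnf and Hgf pairs, beside 17.8, 457 and 259 expected of separate draws. In pericyte-like cells Nodal itself was counted 190 times in the control against 0 in the mutant, which is at least 103-fold lower against a floor of 3 UMIs over the group. Hgf had 23 against 10 UMIs (155 and 30.3 CPM), and Bdnf had 5 against 2 UMIs, too few for a ratio of use. In endothelial-like cells of the Hgf pair Hgf had 284 against 63 UMIs, 22.8 and 4.19 CPM (log2 -2.44, -2.86 to -2.045). The lower Hgf counts were thus not confined to pericyte-like cells. The exons removed are not named in the sources used here, so a 3′ tag does not show by itself whether the deletion took place.

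The window around the Axl and Mertk start sites is shown because these receptors differed in opposite directions in the same cells. Both are the 300 bases (250 before and 50 after the start) of the RefSeq promoter table, each with 1 exact match in GRCm39. Axl lies on chromosome 7 from 25456535 to 25488329 on the minus strand, and its window is chr7:25488109-25488408. Mertk lies on chromosome 2 from 128540729 to 128645080 on the plus strand, and its window is chr2:128540585-128540884. These gene bounds are those of Gencode, and the RefSeq starts lie inside them. Each window thus reaches fewer than 250 bases before the Gencode start. Sequences run 5′ to 3′ on the gene's strand, and capitals mark the GC box GGGCGG on either strand.
Axl: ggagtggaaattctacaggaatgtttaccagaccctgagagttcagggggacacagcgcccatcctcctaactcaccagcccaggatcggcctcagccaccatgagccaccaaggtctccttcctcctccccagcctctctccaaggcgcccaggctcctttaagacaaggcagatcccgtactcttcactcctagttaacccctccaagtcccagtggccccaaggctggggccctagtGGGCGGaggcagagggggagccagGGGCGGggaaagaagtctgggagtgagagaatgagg
Mertk: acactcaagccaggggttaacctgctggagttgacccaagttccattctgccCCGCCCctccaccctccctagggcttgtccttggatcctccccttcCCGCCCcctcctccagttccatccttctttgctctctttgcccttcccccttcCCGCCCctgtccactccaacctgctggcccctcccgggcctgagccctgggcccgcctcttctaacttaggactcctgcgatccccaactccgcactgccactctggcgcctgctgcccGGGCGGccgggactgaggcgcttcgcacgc
The Axl window held 2 GC boxes with 60.3% G and C, and the Mertk window held 4 with 66.0%. A GC box was present in 35.7% of 32851 promoter windows of the same length. The other motifs searched, on both strands and with overlaps counted, were the AP-1 site TGANTCA (in 7.81% of windows), the core of the interferon-stimulated response element, GAAA and GAAA with any 2 bases between them (3.44%), the gamma-activated site TTCNNNGAA (8.30%) and the PU.1 site GAGGAAGT (3.20%). None of these 4 patterns was in the Axl or Mertk window, and of the other 3 members Pros1 alone held any, 1 copy of TTCNNNGAA.

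In microglia-like cells of the cortex Axl was far higher in the Nodal iPCKO library and Mertk was lower. Axl had 273 UMIs in 865 control cells, 48.9 CPM (43.2 to 55.0), and 2709 UMIs in 1402 mutant cells, 279 CPM (268 to 290). The log2 ratio was 2.51 (2.33 to 2.70), a 5.71-fold difference. Mertk, the receptor of resting microglia, differed the other way, being 576 CPM (557 to 597) in control and 327 CPM (316 to 339) in mutant cells (log2 -0.82, -0.89 to -0.75). The intervals of the control and mutant levels did not overlap for either gene.

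The difference between both log2 ratios was 3.33 (3.14 to 3.52). For each Mertk UMI there were 0.0848 Axl UMIs in control and 0.853 in mutant microglia-like cells. Tyro3, the TAM receptor of neurons, was near absent, with 1 UMI in control cells and 0 in mutant cells. Taking 3 counts as the floor, 0 in 1402 cells allows a share of up to 0.214% of cells with a UMI. Microglia-like cells of both libraries thus held tags of Axl and Mertk and close to none of Tyro3.

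Of the 4 members with at least 10 UMIs in microglia-like cells, 1 was past 1.5-fold upward and 1 downward. Over all 16857 genes measured in these cells, 24.6% passed 1.5-fold, 9.17% upward and 15.4% downward, and the median log2 ratio was -0.09. Among 7807 genes with at least 200 UMIs, 5 had a larger upward ratio than Axl: Rab7b, Clec7a, Itgax, Ccl5 and Pdgfrb. The ratio of Mertk was undercut by 84 of these genes. Among these genes the Axl ratio lies at the upper end and the Mertk ratio within the lower tail. Genes with fewer UMIs could have larger ratios, as some interferon-stimulated genes did.

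**Figure D1:**
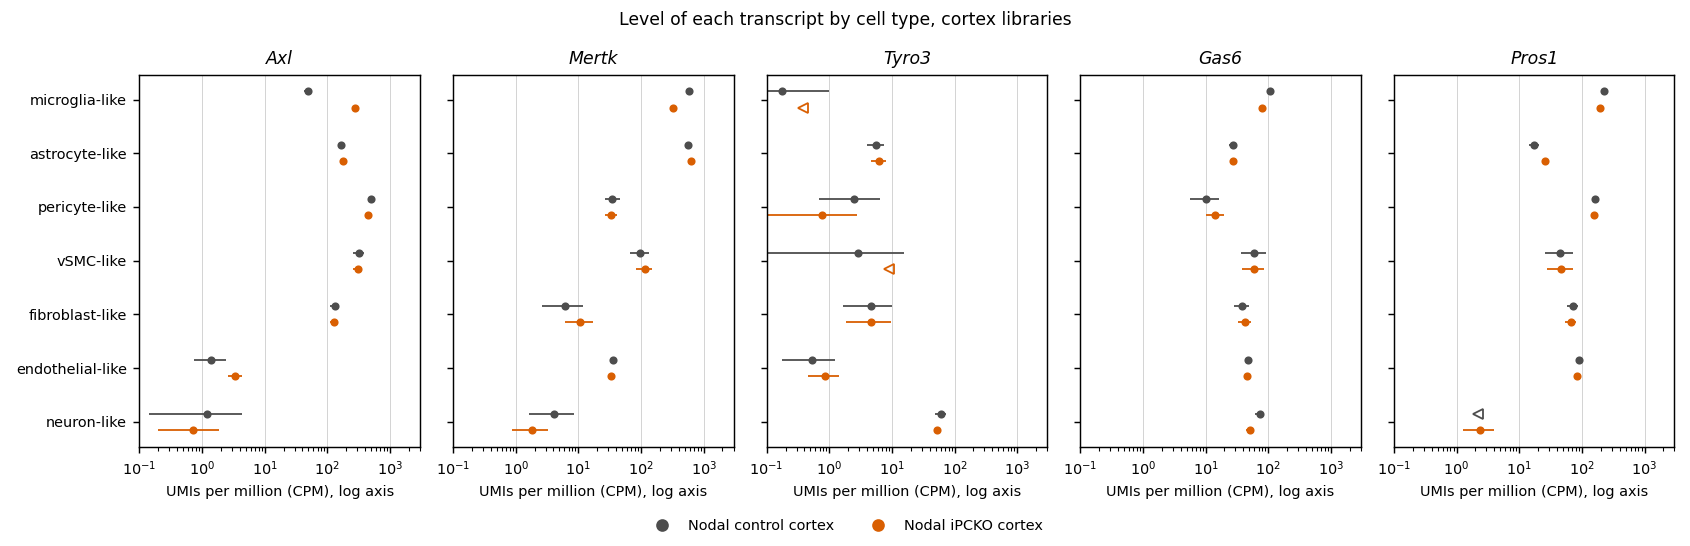
Levels of the 5 members in CPM (log axis) in each cortical cell type, with exact 95% Poisson intervals, for the Nodal control and the Nodal iPCKO library; open triangles are upper limits for 0 UMIs. Axl was 48.9 and 279 CPM in microglia-like cells and 168 and 175 CPM in astrocyte-like cells, while Tyro3 was highest in neuron-like cells among the types shown, each with at least 20 cells.

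More of the microglia-like cells held an Axl tag. An Axl UMI was found in 16.1% of control cells (13.7 to 18.7) and 55.4% of mutant cells (52.8 to 58.0). With each cell thinned to 1500 UMIs the mean shares over all possible draws were 5.74 and 26.4%. Endothelial-like cells, which held little Axl (1.40 and 3.39 CPM), had a UMI in 1.62 and 2.55% of cells. Their median depths were greater (9761 and 9957 UMIs, beside 6177 and 6432 in microglia-like cells). Both microglial shares stood well above that background.

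Mertk was found in 92.4% of control and 79.5% of mutant microglia-like cells, or 56.5 and 38.4% after thinning. In 1 random draw of 1500 UMIs per cell, whose totals differ slightly from these mean shares, cells with both receptors made up 2.66% of control and 8.92% of mutant cells. Cells with Axl and no Mertk tag went from 2.77 to 17.0%, and cells with Mertk and no Axl tag went from 54.3 to 30.0%. A cell without a tag may still express the gene at this depth. The Axl tags were spread over many mutant cells: the top 1% of cells held 8.34% of Axl UMIs there, and 20.5% in the control.

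Astrocyte-like and mural cells, which hold most of the Axl of the control cortex, did not share the difference. Axl was 168 and 175 CPM in astrocyte-like cells (log2 0.06, -0.05 to 0.16), 493 and 438 CPM in pericyte-like cells (-0.17, -0.30 to -0.04), and 316 and 305 CPM in cells like vascular smooth muscle. The microglial log2 ratio exceeded the astrocytic one by 2.46 (2.25 to 2.67) and the pericytic one by 2.68 (2.46 to 2.91). Endothelial-like cells had 13 and 56 Axl UMIs, 1.40 and 3.39 CPM, with a ratio of 1.28 (0.39 to 2.27). The 8 pericyte markers summed to 68.6 and 181 CPM in these same endothelial-like cells and the 8 vascular smooth muscle markers to 14.1 and 24.2 CPM, so markers of the cells richest in Axl moved with it, and their part in the endothelial Axl difference was not tested. Microglia-like cells held 8.88% of all Axl UMIs in the control library and 43.0% in the mutant library, and the share of astrocyte-like cells went from 40.3 to 24.2%.

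Mertk was as high in control astrocyte-like cells (559 CPM, 542 to 576) as in control microglia-like cells, with overlapping intervals. In mutant astrocyte-like cells it was 638 CPM, a log2 ratio of 0.19 (0.13 to 0.25), which is below 1.5-fold and opposite in sign to microglia. The microglial ratio was below the astrocytic one by 1.01 on the log2 scale (difference -1.01, -1.10 to -0.92). Next in order came vascular smooth muscle-like cells at 96.0 and 115 CPM. Endothelial-like cells at 36.1 and 33.3 CPM and pericyte-like cells at 35.1 and 33.4 CPM overlapped with each other.

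Among types with at least 20 cells, neuron-like cells led in Tyro3, with 60.3 CPM (49.2 to 73.2) in 69 control cells and 52.0 CPM (46.2 to 58.4) in 213 mutant cells, and these intervals overlapped. In the mutant the interval of cells like oligodendrocyte precursors (11.2 to 80.8 CPM) overlapped that of neuron-like cells, so the first place there is not fixed. Barcodes gated as oligodendrocytes were too few to be ranked, 0.34% of the control and 0.28% of the mutant barcodes, yet they held 34.0 and 19.0% of all Tyro3 UMIs, beside 38.9 and 56.9% in neuron-like cells. Of the members measured, 0 of 5 were past 1.5-fold in astrocyte-like cells, where 17.7% of all genes were, and 0 of 4 in pericyte-like cells, where 19.7% were. In endothelial-like cells 2 of 5 were, beside 18.8% of all genes: Axl, with mural markers also higher as given above, and Tyro3 with 5 and 14 UMIs and an interval that includes 0.

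**Figure D2:**
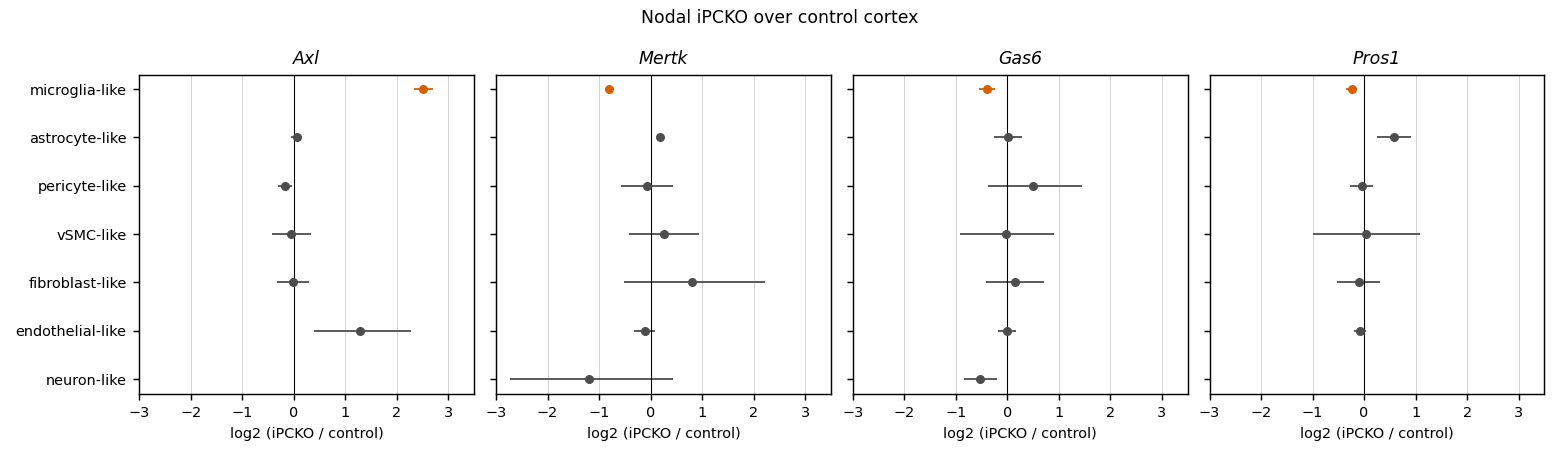
Log2 ratio of Nodal iPCKO over control for Axl, Mertk, Gas6 and Pros1 in cortical cell types with enough UMIs, with exact 95% intervals for counting error. Axl in microglia-like cells, at 2.51, stands apart from its ratios of 0.06 in astrocyte-like and -0.17 in pericyte-like cells.

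Among types with at least 20 cells, both ligands had their highest level in microglia-like cells, although for Gas6 in the mutant the interval overlapped that of vascular smooth muscle-like cells (37.5 to 87.1 CPM). For Gas6, microglia-like cells had a control level of 105 CPM (96.9 to 114) and a mutant level of 80.4 CPM (log2 -0.39, -0.54 to -0.23). Neuron-like cells held 72.7 and 50.4 CPM (-0.53), vascular smooth muscle-like cells 59.3 and 58.5 CPM and endothelial-like cells 46.8 and 46.4 CPM. In both libraries the intervals of neuron-like, smooth muscle-like, endothelial-like and fibroblast-like cells overlapped from each to the next. The order of neighbours is thus not fixed by these counts. In the control, however, the neuron-like interval (60.5 to 86.8 CPM) lay above the endothelial-like (42.5 to 51.4) and fibroblast-like ones (28.2 to 50.1). In the mutant these intervals overlapped. Microglia-like cells held 34.8% and endothelial-like cells 25.8% of all Gas6 UMIs of the control cortex. Ependymal-gated barcodes, too few to be ranked, held 2.42% of them in 0.124% of barcodes, and perivascular macrophage-gated barcodes 1.01% in 0.216%.

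Pros1 was likewise highest in microglia-like cells, at 228 CPM (215 to 241) and 193 CPM (184 to 202), with the log2 ratio at -0.24 (-0.34 to -0.14). Pericyte-like cells held 162 and 157 CPM and endothelial-like cells 89.3 and 84.4 CPM, each within counting error between libraries. In astrocyte-like cells Pros1 was 17.4 and 26.0 CPM (0.58, 0.26 to 0.90), short of 1.5-fold. Microglia-like cells held 45.9% and endothelial-like cells 29.9% of all Pros1 UMIs of the control cortex. Control neuron-like cells had 0 Pros1 UMIs. Both ligands therefore differed between the libraries by less than 1.5-fold in the cells that held most of their tags.

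**Figure D3:**
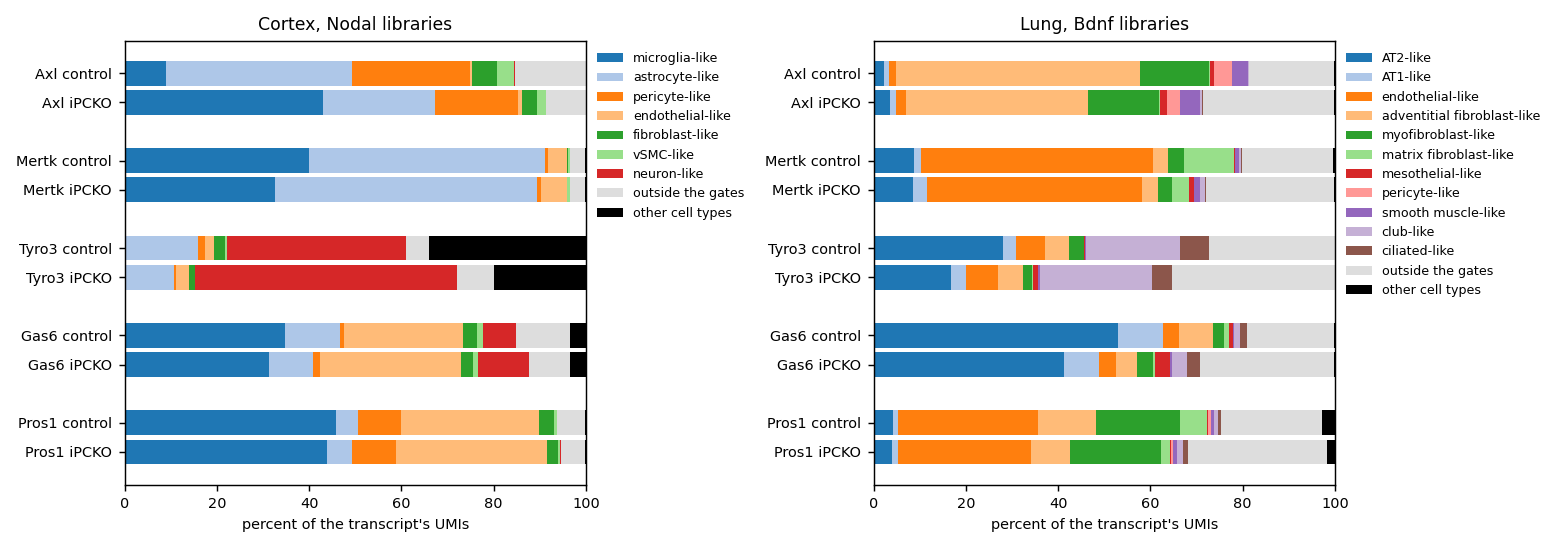
Share of all UMIs of each member that came from each cell type, in percent of the UMIs in all retained barcodes, for both Nodal cortex and both Bdnf lung libraries (grey, outside the gates; black, other types). Microglia-like cells held 8.88% of Axl UMIs in the Nodal control and 43.0% in the Nodal iPCKO cortex, and AT2-like cells held 52.9% of Gas6 UMIs in the Bdnf control lung.

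Most genes of 8 further lists around the pathway differed by less than 1.5-fold in microglia-like cells, as did most genes at large. Of all genes there 24.6% passed 1.5-fold, 9.17% upward and 15.4% downward. Of 5 genes for phosphatidylserine exposure, 4 of the engulfment machinery (such as those that remodel actin), 3 for gamma-carboxylation of the ligands, 3 receptor adaptors, 5 nuclear receptors or their target, and the ectodomain sheddases Adam10 and Adam17, which cut AXL and MERTK from the cell surface, none was past 1.5-fold in either direction. Of 7 measured bridges and receptors for phosphatidylserine outside the TAM family, 1 was, Itgb3, an integrin chain that binds MFGE8, at 23.3 and 13.8 CPM (-0.75, -1.11 to -0.40). Lgals3, the 1 measured gene among other proposed TAM ligands, had 7 and 25 UMIs and a log2 ratio of 1.04, past 1.5-fold upward with an interval that includes 0.

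Interferon-stimulated genes were higher in the mutant microglia-like cells: 13 of 14 were past 1.5-fold upward, beside 9.17% of all genes, with a median log2 ratio of 2.07. Rsad2, which encodes the antiviral enzyme viperin, had 4 and 123 UMIs (4.15, 2.75 to 6.04). Ifit3 and Ifit2 had log2 ratios of 3.26 and 3.08, and the antiviral GTPase gene Mx1 had 2.52 with 6 and 60 UMIs.

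Microglial state genes were also unlike between the libraries. Of all genes in microglia-like cells 9.17% were past 1.5-fold upward and 15.4% downward. Of 16 measured genes of disease-associated microglia, 7 were past 1.5-fold upward and 1 downward, with a median of 0.40. The integrin gene Itgax was 5.73 and 52.7 CPM (3.20), the glucan receptor gene Clec7a 4.00 and 26.5 CPM (2.75), the cystatin gene Cst7 2.68 and 12.5 CPM (2.21), and the growth factor gene Csf1 128 and 483 CPM (1.92). Of 8 homeostatic genes 0 were past 1.5-fold upward and 3 downward: Gpr34 (-0.78), P2ry13 (-0.74) and P2ry12 (-0.66, from 5380 to 3400 CPM), which encode purine and lysophospholipid receptors. Of 10 immediate-early genes that cell dissociation can induce, Egr1 (-0.64) and Jun (-0.62) were past 1.5-fold downward, beside 15.4% of all genes. The list's median was -0.23. With median-of-ratios scaling, which raised microglial log2 ratios by 0.084, P2ry12, Egr1 and Jun fell short of 1.5-fold. The part of dissociation in the Axl result was not tested.

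The Axl difference was present in cells with no gene of a given programme found and in cells with some found, for either programme taken by itself. Each microglia-like cell was thinned to 1500 UMIs in 1 random draw and sorted by how many of the interferon-stimulated genes, or of 8 low-abundance genes of disease-associated microglia, it showed; these are ranges and not cell types. In cells with no interferon-stimulated gene found, 667 control and 766 mutant cells, Axl was 39.1 CPM (33.4 to 45.6) and 219 CPM (206 to 233), a log2 ratio of 2.49 (2.25 to 2.73). With 1 or 2 such genes found it was 76.1 and 323 CPM (2.09, 1.80 to 2.39). In the 52 mutant cells with 3 or more, Axl reached 495 CPM (429 to 568), whereas 8 control cells held 6 Axl UMIs. Exactly 1 gene was found in 169 control and 454 mutant cells, so many cells lie next to the boundary. Finding none at this depth does not place a cell outside a programme. The homeostatic gene P2ry12 was also lower in mutant cells with none found. Its log2 ratio was -0.55 with no interferon-stimulated gene and -0.48 with no disease-associated gene found.

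Mertk was lower in the mutant within each range: 605 and 385 CPM (-0.65, -0.74 to -0.56) with no interferon-stimulated gene, and 479 and 271 CPM (-0.82) with 1 or 2. Sorted by the disease-associated genes, Axl was 39.0 and 190 CPM with none found (2.28, 2.04 to 2.53; 666 and 844 cells) and 74.8 and 352 CPM with 1 or 2 (2.23). In 30 mutant cells with 3 or more it was 908 CPM (802 to 1030), while Mertk was 252 CPM and P2ry12 877 CPM. In that range the control had 2 cells. Gas6 had 2 UMIs in these 30 mutant cells, 6.91 CPM (0.837 to 25.0), beside 87.7 CPM in mutant cells with none found. For Pros1 the same values were 176 and 195 CPM. Within the mutant library Axl was thus higher in cells that showed more of either programme. Mertk was lower with 1 or 2 genes found than with none, and its intervals with 1 or 2 and with 3 or more overlapped.

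**Figure D4:**
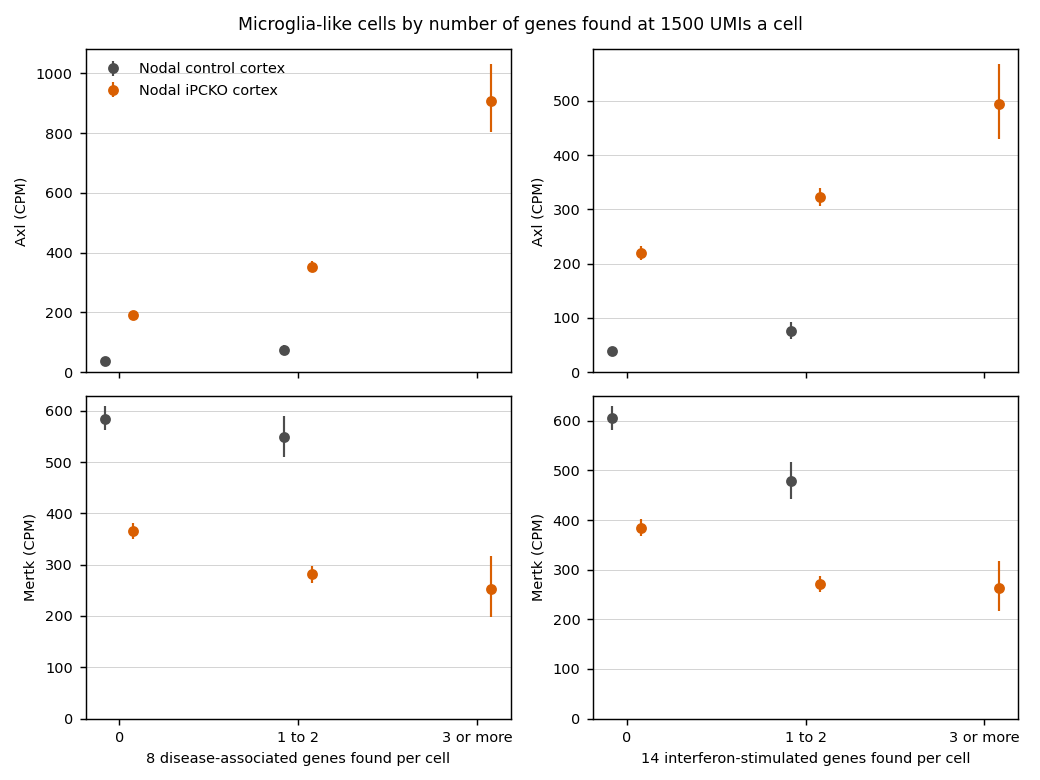
Axl and Mertk in CPM, with exact 95% Poisson intervals, in microglia-like cells sorted by how many interferon-stimulated or disease-associated genes were found at 1500 UMIs per cell, for both cortex libraries where a range held at least 20 cells. Axl was 39.1 and 219 CPM in cells with no interferon-stimulated gene and 495 CPM in mutant cells with 3 or more.

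Interferon-stimulated genes were also higher in some other cortical cells. In astrocyte-like cells 9 of 11 measured were past 1.5-fold upward (median 1.46), beside 7.73% of all genes, although Axl did not differ there. In pericyte-like cells 12 of 13 were, beside 9.39% of all genes. Endothelial-like cells had 4 of 13 upward, beside 7.52%, and 1 downward, with a median of 0.07. Fibroblast-like cells had 2 of 10 upward, beside 11.1%, and 1 downward (median -0.06), and vascular smooth muscle-like cells 1 of 3 upward, beside 13.1%, and 1 downward (median -0.08). In astrocyte-like cells 5 of 10 immediate-early genes were past 1.5-fold upward and 1 downward.

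Pdgfrb, the gene whose BAC carries the Cre, moved with genotype in every type examined. In microglia-like cells its UMIs numbered 15 and 2045 (control and mutant), 2.68 and 211 CPM. In pericyte-like cells it was 822 and 2060 CPM, and in endothelial-like cells 0.537 and 7.01 CPM. Since the controls carry no transgene, the transgene and the deletion of Nodal cannot be told apart as sources of any difference between these libraries.

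Markers of other cells were low in microglia-like cells. The summed level of 8 pericyte markers was 53.0 and 52.7 CPM, beside 41500 and 36100 CPM in pericyte-like cells themselves, with 7 and 8 of them found. Perivascular macrophage markers summed to 210 and 166 CPM with Cd163 at 0 in both, and astrocyte markers to 167 and 100 CPM. In barcodes of 10 to 100 UMIs, mostly free RNA, Axl was 77.0 and 92.9 CPM and Mertk 289 and 201 CPM. Only 1 control and 7 mutant microglia-like cells lay within 0.05 of the gate, and the next best score, for neutrophils, had medians of 0.0789 and 0.0694.

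In lung, Axl marked the mesenchyme. Among types with at least 20 cells, pericyte-like cells had the highest level in all 4 libraries, with 629 and 605 CPM in the Bdnf control and iPCKO and 828 and 884 CPM in the Hgf control and iPCKO, and only in the Hgf iPCKO did the interval overlap with that of the next type. In the same order, adventitial fibroblast-like cells held 402, 454, 444 and 497 CPM, smooth muscle-like cells 336, 267, 340 and 701 CPM, and myofibroblast-like cells 234, 240, 243 and 312 CPM. Adventitial fibroblast-like cells came second except in the Hgf iPCKO, where smooth muscle-like cells did. In both Hgf libraries the intervals of these types overlapped, so second place there is not fixed. Matrix fibroblast-like cells stood far below, at 6.82 to 30.6 CPM. AT1-like, AT2-like and endothelial-like cells held 1.40 to 8.36 CPM. Venous-like cells of the Bdnf pair had 1 and 34 Axl UMIs, a log2 ratio of 5.06 with the wide interval 2.48 to 10.40. In the Hgf pair they had 10 and 12 UMIs, and between the controls the ratio was 4.58 (Hgf over Bdnf), so the Bdnf control stood apart. Barcodes gated as alveolar macrophages, too few to be ranked after the depletion of CD45+ cells, held 2.87% of Axl UMIs in 0.0479% of barcodes of the Hgf control. Adventitial fibroblast-like cells made up 3.60% of barcodes and 52.8% of Axl UMIs in the Bdnf control lung.

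Among lung types with at least 20 cells, Mertk levels were highest in matrix fibroblast-like and endothelial-like cells. Matrix fibroblast-like cells had 206 and 208 CPM in the Bdnf pair and 132 and 153 CPM in the Hgf pair. Endothelial-like cells had 86.4 and 88.4 CPM in the Bdnf pair (0.03, -0.06 to 0.13), and 102 and 175 CPM in the Hgf pair (0.78, 0.68 to 0.88). Within the endothelium, cells like aerocytes (aCap), the capillary cells specialised for gas exchange, were highest. They had 264 and 218 CPM in the Bdnf pair and 196 and 302 CPM in the Hgf pair (0.63, 0.48 to 0.77). General capillary (gCap)-like cells had 51.4 and 55.0 CPM in the Bdnf pair and 68.5 and 149 CPM in the Hgf pair (1.12, 0.93 to 1.32). Arterial-like cells of the Bdnf pair had 82.9 and 83.5 CPM and venous-like cells 50.0 and 53.6 CPM, so gCap-like cells did not stand above larger vessels there.

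Venous-like cells had Mertk at 55.4 and 107 CPM in the Hgf pair (0.95, 0.61 to 1.31), and arterial-like cells at 74.8 and 84.8 CPM. Endothelial Mertk was thus higher in the Hgf iPCKO library in both capillary types and in veins; whether this differs from the Bdnf pair was not tested. In the barcodes of 10 to 100 UMIs Mertk was also higher in the Hgf mutant, at 160 CPM beside 71.7 CPM in its control, and at 58.9 and 50.8 CPM in the Bdnf mutant and control. The part of free RNA in the Hgf difference was not tested. Pericyte-like cells of the Hgf pair had 0 and 20 Mertk UMIs.

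**Figure D5:**
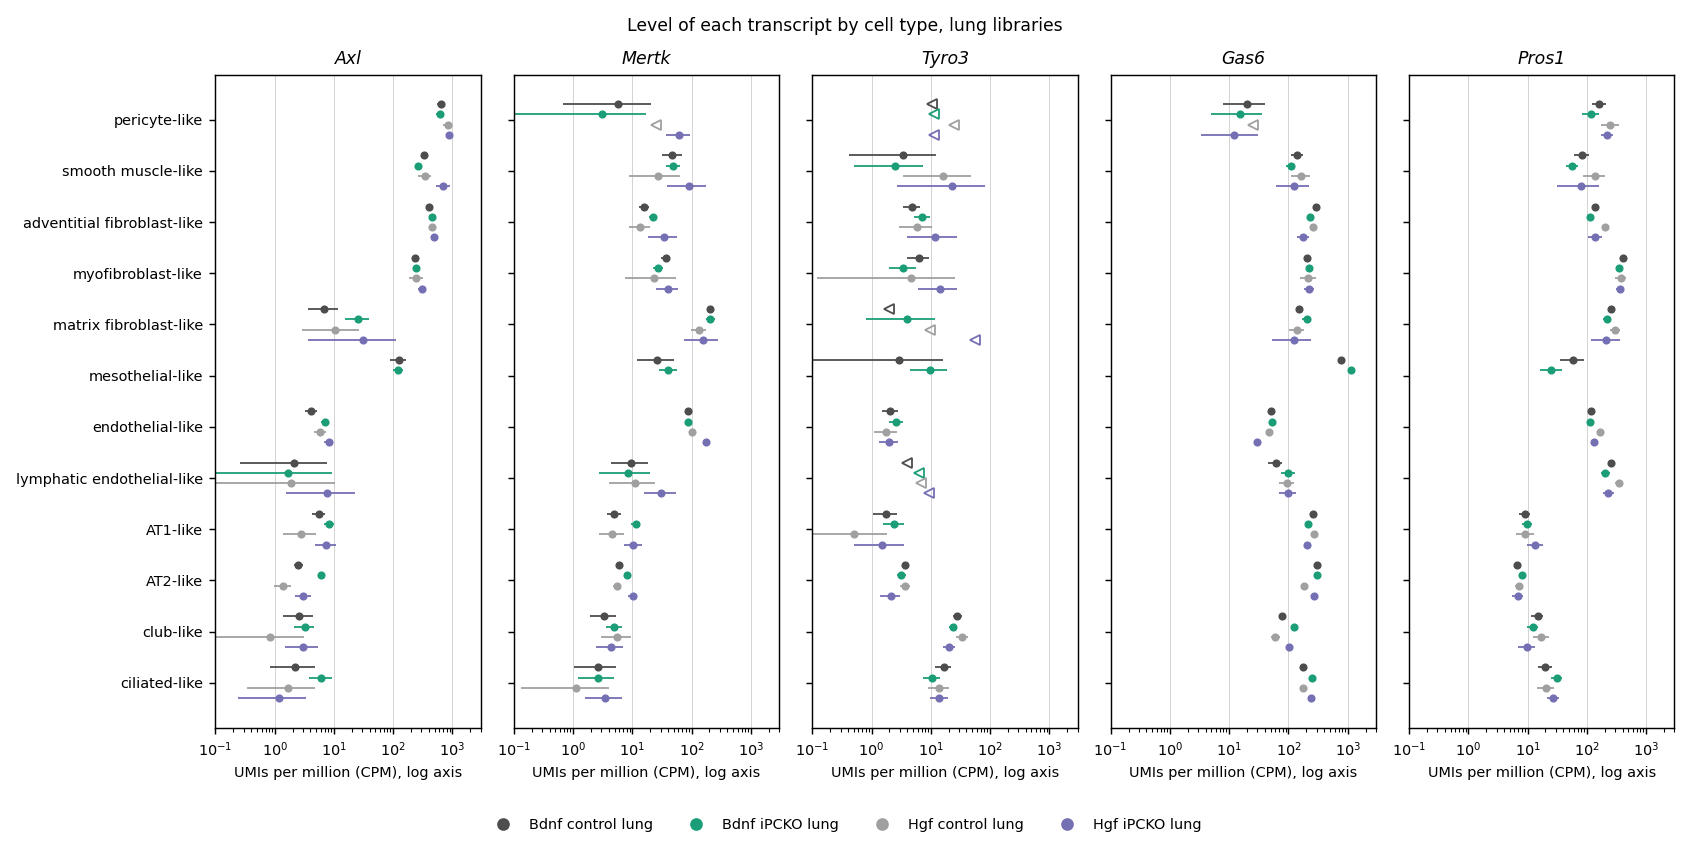
Levels of the 5 members in CPM (log axis) in each lung cell type with at least 20 cells, with exact 95% Poisson intervals, for the Bdnf and Hgf pairs, with open triangles as upper limits for 0 UMIs. Axl was highest in pericyte-like cells of both controls (629 and 828 CPM) among the types shown; in the Bdnf control Mertk was highest in matrix fibroblast-like cells and Pros1 in myofibroblast-like cells, whereas in the Hgf control those intervals overlapped with the next type.

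Tyro3 was low throughout the lung. Club-like cells of the airway were highest in 3 of the 4 libraries at 27.9, 23.6 and 34.0 CPM in the Bdnf control, Bdnf iPCKO and Hgf control, and held 20.6 CPM in the Hgf iPCKO (-0.72, -1.20 to -0.25 for the Hgf pair). Smooth muscle-like cells of the Hgf iPCKO had 22.6 CPM with an interval of 2.74 to 81.7, so the first place there is not fixed, and in the Hgf control their interval of 3.34 to 47.3 CPM overlapped that of club-like cells. Ciliated-like cells held 10.5 to 16.4 CPM.

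Gas6 in lung was found in mesothelial, epithelial and fibroblast-like cells alike. Mesothelial-like cells of the Bdnf pair held 765 CPM (675 to 864) in 33 control cells and 1140 CPM in 111 mutant cells (0.57, 0.37 to 0.77). AT2-like cells, which make surfactant, held 304 and 300 CPM in the Bdnf pair (-0.02) and 182 and 267 CPM in the Hgf pair (0.56, 0.49 to 0.62). AT1-like cells, the flat gas exchange cells, held 258 and 211 CPM (-0.29) and 267 and 202 CPM (-0.40). By its large number of cells AT2 held 52.9% of Gas6 UMIs in the Bdnf control and 54.0% in the Hgf control. The difference of Gas6 in AT2-like cells of the Hgf pair was smaller than that between both controls, -0.74 on the log2 scale (Hgf over Bdnf).

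Adventitial fibroblast-like cells had Gas6 at 296 and 230 CPM (-0.36) and 262 and 178 CPM (-0.56), lower in both mutants, and in the Bdnf control their interval overlapped that of AT2-like cells. Myofibroblast-like cells held 204 and 225 CPM in the Bdnf pair and 215 and 222 CPM in the Hgf pair. Club-like cells had 77.3 and 122 CPM (0.66) and 60.3 and 101 CPM (0.74), and ciliated-like cells 179 and 245 CPM (0.46) and 177 and 242 CPM (0.45), higher in both. In endothelial-like cells Gas6 was 50.2 and 52.8 CPM in the Bdnf pair, and 47.0 and 29.6 CPM in the Hgf pair (-0.67, -0.85 to -0.49). In the Hgf pair this was most marked in venous-like cells, at 114 and 38.5 CPM (-1.56, -1.93 to -1.21). Pericyte-like cells of the Bdnf pair held 19.8 and 15.4 CPM, from 7 and 5 UMIs.

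Pros1 in lung came from stroma and endothelium. Myofibroblast-like cells held 413 CPM (392 to 434) and 353 CPM in the Bdnf pair and 370 and 360 CPM in the Hgf pair. Lymphatic endothelial-like cells held 254 and 206 CPM, and 349 and 230 CPM (-0.60, -0.98 to -0.23), matrix fibroblast-like cells 253 and 216, and 303 and 214 CPM. In endothelial-like cells Pros1 was 118 and 111 CPM in the Bdnf pair (-0.09) and 167 and 130 CPM in the Hgf pair (-0.37, -0.46 to -0.28). AT2-like cells, the main source of Gas6 tags, held only 6.52 to 7.93 CPM of Pros1. Pros1 was thus low in AT2-like cells, whereas adventitial fibroblast-like and myofibroblast-like cells held both ligands. Pericyte-like cells held 117 to 249 CPM of Pros1.

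The members past 1.5-fold were counted in the endothelial-like, AT2-like and AT1-like cells of the lung. In the Bdnf pair 1 of 5 members was past 1.5-fold in endothelial-like cells (Axl, 4.12 and 7.01 CPM), where 19.7% of all genes were. In AT2-like cells it was again 1 of 5 (Axl, 2.50 and 6.07 CPM), beside 21% of genes, and in AT1-like cells 2 of 5 (Axl and Mertk), beside 26.0%. The Axl ratio there, 0.59, lay at the threshold, and with median-of-ratios scaling it was 0.53 and the count 1 of 5. In the Hgf pair 2 of 5 were in endothelial-like cells (Mertk higher, Gas6 lower), beside 35.0% of genes. In AT2-like cells 3 of 5 were (Axl and Mertk higher, Tyro3 lower), beside 36.0%, and in AT1-like cells 2 of 4 (Axl and Mertk), beside 34.7%. Apart from Mertk and Gas6 in endothelial-like cells of the Hgf pair, each of these had a level of 11.6 CPM or less in both libraries. The barcodes of mostly free RNA held more Axl than that, in control and mutant 25.7 and 32.0 CPM (Bdnf) and 16.5 and 24.0 CPM (Hgf). Mertk in those barcodes was 50.8 and 58.9 CPM in the Bdnf pair and 71.7 and 160 CPM in the Hgf pair. Tyro3 in those of the Hgf pair was 4.73 and 3.85 CPM. The part of free RNA in these low-level differences was not tested. Immediate-early genes were also past 1.5-fold upward in the Bdnf mutant, 7 of 10 in AT1-like cells (median 0.75), beside 19.4% of all genes, 5 of 10 in AT2-like cells (0.62), beside 14.5%, and 3 of 10 in endothelial-like cells (0.38), beside 11.1%. In AT2-like cells of the Hgf pair 5 of 10 were past 1.5-fold downward (-0.77), beside 17.8%. The part of dissociation in these differences was not tested.

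Other lung types also held members past 1.5-fold with intervals off 0, some of them on few UMIs and in types where many genes passed that threshold. In the Bdnf pair 28.4% of all genes did so in matrix fibroblast-like, 19.2% in ciliated-like, 34.6% in mesothelial-like, 28.2% in lymphatic endothelial-like, 18.8% in club-like and 24.6% in venous-like cells. In the Hgf pair it was 47.0% in adventitial fibroblast-like, 35.8% in club-like, 37.9% in lymphatic endothelial-like, 34.1% in aCap-like, 34.6% in gCap-like and 36.0% in venous-like cells. In the Bdnf pair Axl in matrix fibroblast-like cells had 13 and 19 UMIs, 6.82 and 25.1 CPM (1.88, 0.78 to 3.02), and 8 of 10 immediate-early genes were past 1.5-fold upward there (median 0.84), beside 16.3% of all genes. Ciliated-like cells had 6 and 21 Axl UMIs (1.45, 0.09 to 3.05) and Pros1 at 19.7 and 30.8 CPM (0.64). Pros1 in mesothelial-like cells was 58.4 and 25.2 CPM (-1.21, -2.14 to -0.27), and Gas6 in lymphatic endothelial-like cells 60.5 and 98.1 CPM (0.70). In the Hgf pair Mertk in adventitial fibroblast-like cells had 25 and 14 UMIs, 13.4 and 33.6 CPM (1.32, 0.27 to 2.32). Pros1 in club-like cells of that pair was 17.0 and 9.74 CPM (-0.80, -1.49 to -0.12). The part of free RNA in these Axl and Mertk differences was not tested.

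The 2 control lungs share age and lack of transgene. They differ in floxed allele, depth and the minimum of UMIs per barcode (1500 for Bdnf, 700 for Hgf). Their difference shows how far libraries can stand apart without a deletion, and is not a measure of the spread within a pair. Between the 2 controls 34.6% of genes were past 1.5-fold in endothelial-like cells, 35.1% in AT2-like and 34.5% in AT1-like cells. The endothelial difference of Pros1 between the controls (0.50) was larger than that between Hgf mutant and control. For Axl in smooth muscle-like cells of the Hgf pair, 340 and 701 CPM (1.04, 0.52 to 1.57), the cells numbered 73 and 47, 51.3% of all genes were past 1.5-fold, and the ratio was 0.74 with median-of-ratios scaling. In the Bdnf pair the level was 336 and 267 CPM. Interferon-stimulated genes were lower in the lung mutants in endothelial-like cells. There 11 of 13 measured genes were past 1.5-fold downward in the Bdnf pair, beside 8.68% of all genes, and 13 of 13 in the Hgf pair, beside 18.4%. In cortical endothelial-like cells 4 of 13 were upward, beside 7.52% of all genes, and 1 downward, with a median of 0.07.

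The patterns of the members over all sums of library and cell type are described by the genes most like them, by Pearson's r of log2(CPM + 10); the sums share libraries and depth, and no p-value applies. In cortex, over 15 sums and 8841 genes, Axl was most like Pygm (r = 0.91), Cd63-ps (0.90) and Pdgfrb (0.90). Pdgfrb is the gene of the BAC and moved with genotype, at 2.68 and 211 CPM in microglia-like cells. The sums of microglia-like cells are among the 15, so this likeness is not one of mural cells alone. Mertk was most like Arhgap5, Akr1b10 and Son (0.92, 0.92 and 0.91), and Tyro3 most like Mapk8ip2, Lrp11 and 6330403K07Rik (each 0.99). Gas6 was most like Npnt (0.90), Irf2bpl (0.84) and Ndel1 (0.82), and Pros1 most like Wasf2 (0.95), Cggbp1 (0.95) and Plxdc2 (0.94).

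In lung, over 48 sums and 10011 genes, Axl was most like the stromal genes C1qtnf1 (0.93), Loxl3 (0.92) and Ddr2 (0.91), a collagen receptor. Mertk was most like Fibin (0.82), a marker used for the aerocyte gate, Cyp2d22 (0.80) and Tnik (0.79). Tyro3, which stayed under 50 CPM in every sum, was most like Ldhb (0.78), Mycl (0.78) and Aldh3a1 (0.75). Gas6 was most like Oplah (0.74), Tmem150a (0.73) and Cgnl1 (0.69), and Pros1 most like Tgfbr3 (0.91), Arhgef40 (0.90) and Lama4 (0.90). The highest likeness was thus weaker for lung Gas6 than for lung Axl or Pros1.

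Tyro3 lies on chromosome 2 from 119628214 to 119648738, Gas6 on chromosome 8 from 13515371 to 13544824 and Pros1 on chromosome 16 from 62674275 to 62749710 in GRCm39. The 3′ end of Gas6 overlaps Tmem255b on the other strand, and reads of both cannot be told apart if strand was ignored. Tmem255b was at 0 CPM in microglia-like cells and at 33.9 and 26.8 CPM in the vascular smooth muscle-like cells of the cortex, so the Gas6 level there is uncertain. Mertk overlaps 3 predicted genes, 1 of them on its own strand, and Pros1 overlaps 1, whereas no annotated gene overlaps Axl or Tyro3.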

How the data were processed

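The authors deposited 1 matrix of estimated UMI counts per library from BD Rhapsody 3′ single-cell RNA-seq. The authors made these estimated counts with STARsolo against GRCm39, with STAR 2.7.10a given in the submitters' processing notes, and the deposited estimated counts share multi-mapping reads between genes by expectation maximisation, so they need not be whole. The methods name Gencode vM33 and another passage M26; the strand setting is not given in the sources used here. Gene positions were taken from Gencode vM39 on the same assembly.

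Barcodes with at least 1500 UMIs (700 for Hgf) were assigned to a type when its marker score was at least 0.4 and no other type reached 0.6 of it. Lung endothelial-like cells were split into aCap, gCap, arterial and venous by a looser gate. It asked for a subtype score of at least 0.3 and a next subtype at no more than 0.8 of it. Barcodes scoring on more than 1 type were left out, which also removes many doublets, and no doublet caller was run. UMIs were summed per library and type with at least 20 cells and rounded for intervals. Genes with at least 10 UMIs over both libraries were measured, and a difference of 1.5-fold was the threshold. With 1 library of 2 mice per group no test was possible. The lung monocyte gate was dropped, since leading genes went against its name in the Hgf libraries. A floor of 3 UMIs stood for 0.

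Named genes were the members, up to 4 genes per pathway list with the largest ratio in microglia-like cells past 1.5-fold and with an interval without 0, and the 3 genes most like each member among those with 50 CPM in some sum. Rab7b, Ccl5 and Pdgfrb were named after their values were seen. Members and lists were chosen with earlier results of these data known. The scripts were tested on simulated data (Python 3.11.15, numpy 2.4.6, scipy 1.17.1, pandas 2.3.3, matplotlib 3.10.9). The alternatives tried were other UMI minimums, gates, count rounding, scaling, fold thresholds and gene filters. Another of the gene lists is not reported here.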

Additional observations from a re-analysis of the deposited data

How the results depend on the processing

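The Axl ratio in microglia-like cells stayed between 2.49 and 2.60 on the log2 scale over the alternatives run. Scaling by the median of ratios, which raised all microglial log2 ratios by 0.084, gave Mertk a log2 ratio of -0.73. The share of genes past 1.5-fold in microglia-like cells was 25.4% with fractional counts cut off, 23.7% with that scaling, 16.7% with at least 30 UMIs per gene and 9.85% for a 2-fold threshold. In all, 64 of 69 recomputed values of the 8 main results moved by less than the counting interval, and none changed sign. Of 1008 values for 126 other ratios of the members, 4 moved beyond it: Axl and Tyro3 in club-like cells and Gas6 in lymphatic endothelial-like cells of the Bdnf pair, and Gas6 in club-like cells of the Hgf pair. No paired analysis was possible because each group held 1 library, and for the same reason no library could be left out. With that scaling log2 ratios moved by over 0.1 in some small types of the Hgf pair, by as much as -0.384 in matrix fibroblast-like cells, and by 0.112 in mesothelial-like cells of the Bdnf pair. Depth limits Tyro3 in microglia, Axl in endothelium and the ligands in lung pericyte-like cells, which rest on few UMIs.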
